A study of Mus musculus with 6 samples.

Results

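Transcripts of 44 hematopoietic transcription factor genes, taken by gene symbol from a count table of 54532 genes, were compared between 32D cells carrying mutant and wild-type human U2AF1. All 44 genes had a row in the table, 40 of them held at least 1 count, and 33 had enough counts to be tested. 32D is a mouse myeloid cell line, called myeloblast-like in the labels, that was grown in serum with mouse interleukin-3. U2AF1 is a splicing factor that helps to recognise the 3' end of introns, and S34F is a substitution found in myeloid malignancies. In the first group (S34F) the cells were transduced with an MSCV-IRES-GFP retrovirus carrying human U2AF1 S34F, and in the second (WT) with the same vector carrying wild-type human U2AF1. Each group had 3 messenger RNA libraries. The retroviral gene came on top of the cells' own mouse U2af1 in both groups. The labels name no clones, no separate cultures and no untransduced cells, so the p-values reflect only how far these libraries vary, which may be a technical spread.

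Lineage choice in blood formation is set by small combinations of transcription factors that bind DNA together and switch genes on or off. In stem and progenitor cells, GATA2, TAL1 or LYL1, LMO2, LDB1, RUNX1, FLI1 and ERG occupy shared sites. PU.1, encoded by Spi1, drives macrophage and granulocyte genes as its dose goes up, GATA1 with its partner FOG1 (Zfpm1) drives red cell and megakaryocyte genes, and Ikaros and E proteins drive lymphoid genes. MYC with its partner MAX drives growth in all of these cells. The genes are described here by these roles.

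The libraries held between 16509899 and 19129250 counts, and 3 counts, the limit that a count of 0 allows, equalled 0.156 to 0.182 CPM (counts scaled to a common library size, TMM-normalised). Intervals and such limits cover counting error only. WT replicates 2 and 3 stood apart as a very close pair: the variation left after counting noise was 3.21% between them, while the remaining same-group pairs had 16.5% to 21.5%. Values are therefore also given with this pair summed into 1 library. Pairs across the groups had 21.6% to 29.5%, the lowest for S34F replicate 1 with WT replicate 1. Mouse U2af1, the gene of the study, stood at 91.9, 57.3 and 91.7 CPM in S34F replicates 1 to 3, against 97.9, 58.6 and 56.9 CPM in WT replicates 1 to 3, and the groups overlapped. The counts do not show which U2AF1 allele a library carried. Of 9 markers of myeloblasts, Ctsg, Prtn3, Mpo, Il3ra, Csf2rb and Ptprc were present. Elane, Kit and Cd34 lay at 0.487 CPM or less in every library, so the labelled cell type was met only in part.

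Levels between genes were compared as CPM per kb of exon, and the genes are ordered by their mean over all 6 libraries. Myc stood highest, at 145 ± 13.5 CPM per kb in S34F and 133 ± 10.4 in WT (SD, n = 3 each). Lyl1, a helix-loop-helix relative of Tal1, followed at 118 ± 5.63 CPM per kb in S34F and 93.6 ± 8.66 in WT (SD, n = 3 each). Mecom, which encodes the zinc finger factor EVI1 of stem cells and some myeloid leukemias, reached 103 ± 13.4 CPM per kb in S34F and 73.2 ± 19.5 in WT (SD, n = 3 each). Gata2 followed at 89.0 ± 10.0 CPM per kb in S34F and 80.4 ± 6.83 in WT (SD, n = 3 each). Etv6, an ETS repressor, was next at 56.8 ± 7.41 CPM per kb in S34F and 66.1 ± 3.06 in WT (SD, n = 3 each), and then Spi1 at 72.0 ± 8.64 CPM per kb in S34F and 47.6 ± 2.77 in WT (SD, n = 3 each). Myc was apart from Lyl1 by more than their SDs in both groups. The mean ± SD ranges of Lyl1 and Mecom, and of Mecom and Gata2, overlapped in both groups, so these neighbours in the order did not differ beyond their spread. Etv6 and Spi1 overlapped in this way in S34F, while in WT Spi1 was below Etv6 and within the SDs of Cbfb and Lmo2. The low end among the tested genes was Bcl6, a germinal center repressor, at 0.531 ± 0.168 CPM per kb in S34F and 0.549 ± 0.136 in WT (SD, n = 3 each).

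**Figure D1:**
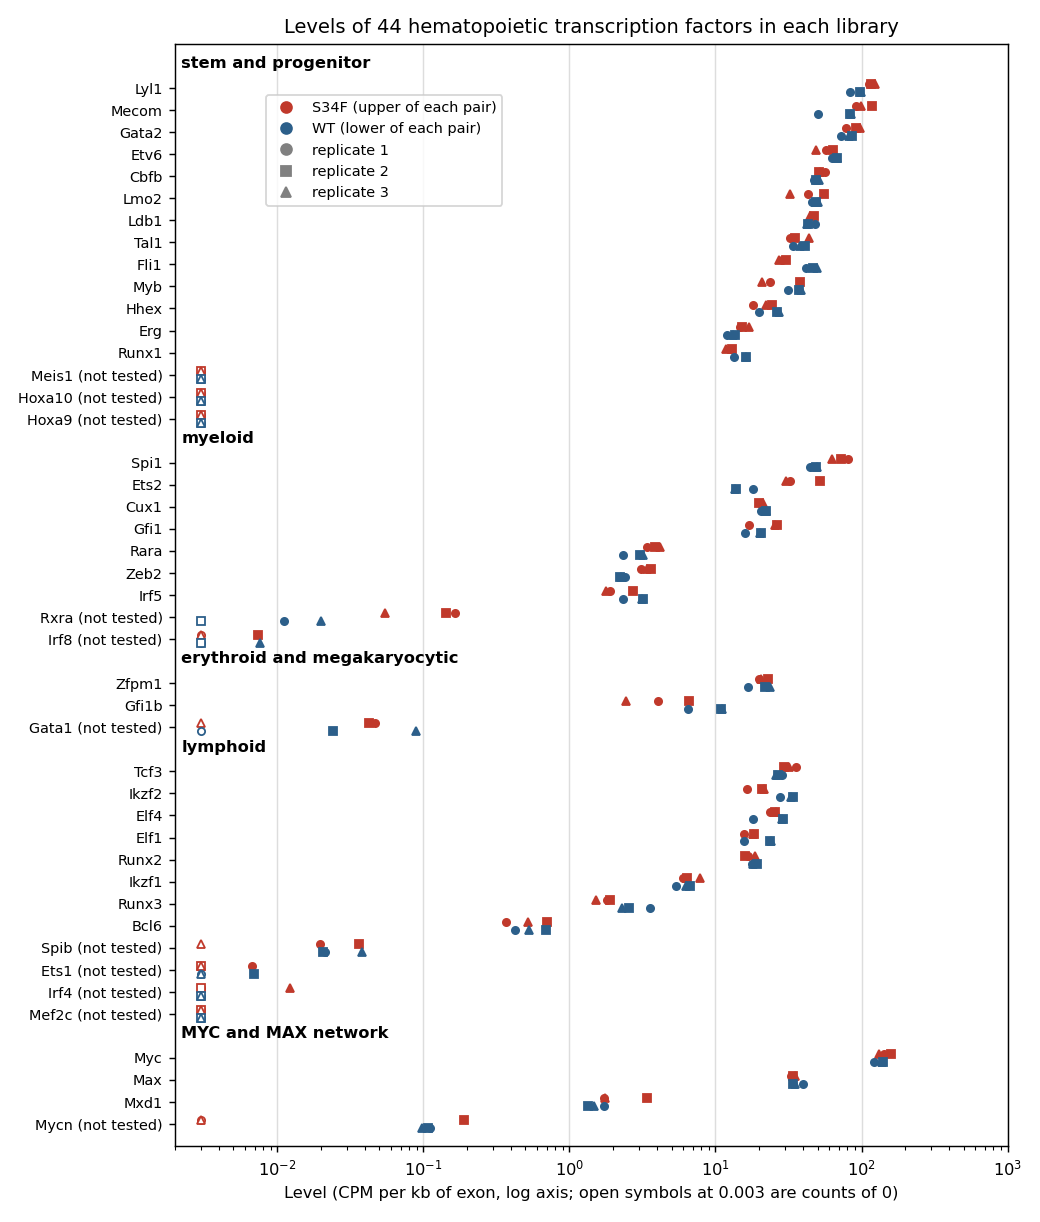
Level of each of the 44 genes in each library as CPM per kb of exon on a log axis, in red for S34F and in blue for WT, with 1 symbol shape per replicate number and open symbols for counts of 0. Most stem and progenitor genes lie between 10 and 150 CPM per kb in both groups, while 11 genes, among them Gata1, Irf8, Meis1, Hoxa9 and Hoxa10, lie near or at 0.

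Of the 33 genes tested, 3 rose in S34F cells, 2 fell and 28 did not pass the test (quasi-likelihood test of edgeR, p adjusted by Benjamini-Hochberg over all genes, threshold 0.05). Over all 13444 genes tested 2.18% were called, 1.58% as higher and 0.595% as lower in S34F. The genes were chosen with earlier results of these data in view, so their count was not tested against that background. The 3 that rose, Ets2, Spi1 and Zeb2, belong to the myeloid role, and the 2 that fell, Fli1 and Ikzf2, to the stem and lymphoid roles. At an unadjusted p under 0.05 there were 11 of the 33, where 22.0% of all genes tested lay under it. DESeq2 called 7 of the 33 and 9.04% of all genes, and limma-voom called 5 of the 33 and 2.02% of all genes. The median log2 fold change of the 33 genes was -0.01, beside 0.00 for all genes tested. In 13 of the 33 genes all 3 S34F libraries lay outside the range of the WT libraries, 9 above and 4 below, where 27.1% of all genes tested did so (14.0% above and 13.1% below). In bulk RNA, fewer cells of a type and less RNA per cell cannot be told apart.

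**Figure D2:**
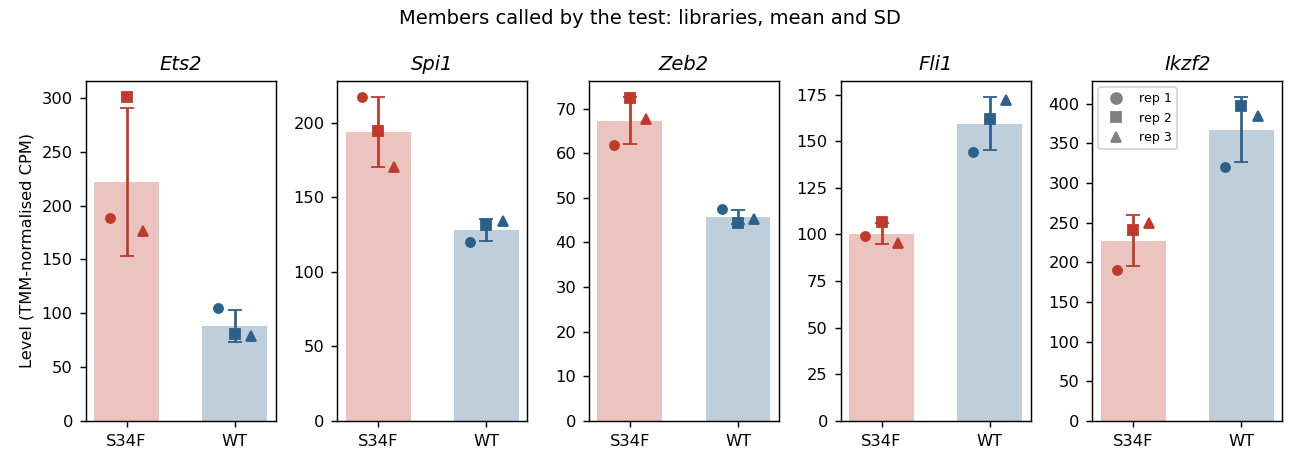
Level of the 5 called genes in each library, in TMM-normalised CPM on axes that start at 0, with S34F in red on the left and WT in blue on the right, bars for the mean and whiskers for the SD of 3 libraries. In each gene the S34F and WT libraries do not overlap, and S34F replicate 2 of Ets2, at 301 CPM, stands apart from the other S34F libraries.

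Of the 9 myeloid genes, 7 could be tested and 3 rose, where 1.58% of all genes tested were called as higher. Ets2 had the largest log2 fold change of the tested ones. This ETS family factor responds to growth factor signalling and takes part in macrophage gene expression. It stood at 188, 301 and 177 CPM in S34F replicates 1 to 3, against 105, 80.3 and 79.1 CPM in WT replicates 1 to 3. Every S34F library lay above every WT library, and S34F replicate 2 was the highest. Ets2 rose 2.52-fold, with a log2 fold change of 1.33 ± 0.22 (SE, 3 libraries each, edgeR adjusted p = 0.0272). Without S34F replicate 2 the log2 fold change was 1.05 ± 0.15 (edgeR adjusted p = 0.0329). Ets2 did not pass without S34F replicate 1, S34F replicate 3, WT replicate 2 or WT replicate 3, nor with WT replicates 2 and 3 summed.

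Spi1 encodes PU.1, the ETS factor that macrophages and granulocytes need to form. Its level was 217, 194 and 170.5 CPM in S34F replicates 1 to 3, against 119.9, 131 and 134 CPM in WT replicates 1 to 3. The S34F libraries spread over a wider range than the WT libraries and did not overlap them. Spi1 rose 1.51-fold, with a log2 fold change of 0.60 ± 0.12 (SE, edgeR adjusted p = 0.0491). Zeb2, a zinc finger repressor that acts in the choice between monocytes and granulocytes, was measured at 61.8, 72.3 and 67.7 CPM in S34F replicates 1 to 3, against 47.6, 44.3 and 45.3 CPM in WT replicates 1 to 3. The 3 WT libraries lay close together and below all S34F libraries, and Zeb2 rose 1.47-fold (log2 fold change 0.56 ± 0.11 SE, edgeR adjusted p = 0.0438). Adjusted p-values of Spi1 and Zeb2 lay just under the threshold of 0.05. On GRCm38 Ets2 lies on chromosome 16, 95702075 to 95721051 (plus strand), Spi1 on chromosome 2, 91082390 to 91115756 (plus strand) and Zeb2 on chromosome 2, 44983632 to 45117395 (minus strand).

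The start regions of Ets2 and Zeb2 are shown, as the promoter sequences used here held no window for Spi1, Fli1 and Ikzf2. The ETS factors among the genes bind the core GGAA, and capitals mark each GGAA on either strand. The windows run from 250 bases before to 50 after a RefSeq start (build GRCm38.p6), in the direction of the gene. For Ets2 it is chr16:95702157-95702456 on the plus strand and for Zeb2, at the farthest upstream of its 4 starts, chr2:45117393-45117692 on the minus strand.
Ets2: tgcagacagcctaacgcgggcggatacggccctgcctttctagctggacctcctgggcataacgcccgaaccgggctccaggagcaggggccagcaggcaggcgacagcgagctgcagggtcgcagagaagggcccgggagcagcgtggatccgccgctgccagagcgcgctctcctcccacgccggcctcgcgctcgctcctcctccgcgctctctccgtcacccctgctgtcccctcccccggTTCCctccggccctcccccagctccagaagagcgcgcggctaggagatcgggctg
Zeb2: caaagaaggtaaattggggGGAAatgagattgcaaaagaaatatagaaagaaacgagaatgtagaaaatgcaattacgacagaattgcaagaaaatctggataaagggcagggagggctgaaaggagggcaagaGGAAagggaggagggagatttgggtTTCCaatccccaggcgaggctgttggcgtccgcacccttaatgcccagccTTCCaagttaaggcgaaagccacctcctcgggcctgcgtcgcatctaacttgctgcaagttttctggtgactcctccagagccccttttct
The Ets2 window held 1 GGAA and the Zeb2 window 4, 1 of them within GAGGAA, the form bound by PU.1. GGAA occurred in 96.0% of all 32851 promoter windows of this length and GAGGAA, which contains it, in 28.3%. Of the 44 genes, 38 had RefSeq windows, 63 in all, and 96.8% of these held GGAA and 28.6% held GAGGAA on either strand. Another form, bound by many other ETS factors and written CCGGAA, was in 12.7% of these 63 windows and in 14.9% of all windows. The GATA motif AGATAA was in 4.76% against 11.2% of all windows, and the RUNX motif TGTGGT in 7.94% against 16.8%, all on either strand. Neither printed window held any of these last 3 motifs.

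The other myeloid genes that could be tested did not pass. Rara, the retinoic acid receptor that promotes granulocyte maturation, stood at 14.9, 16.7 and 18.1 CPM in S34F replicates 1 to 3, against 10.1, 13.4 and 14.0 CPM in WT replicates 1 to 3. All S34F libraries lay above the WT libraries, with a log2 fold change of 0.41 ± 0.18 (SE, edgeR adjusted p = 0.229). Gfi1, a repressor that neutrophils need to develop, had a log2 fold change of 0.28 ± 0.18 (SE, edgeR adjusted p = 0.396). Cux1, a homeobox factor, had one of -0.09 ± 0.10, and Irf5, an interferon regulatory factor of macrophages, one of -0.44 ± 0.24 (SE, edgeR adjusted p = 0.630 and 0.331). The groups of all 3 genes overlapped. Of the exon bases of Irf5, 14.1% lie opposite exons of Tnpo3, which was counted at 134.9 CPM in S34F and 158.7 CPM in WT, far above Irf5 itself at 6.19 CPM in S34F and 8.38 CPM in WT. The sources used here do not say whether strand was used in counting.

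Rxra, the partner of retinoic acid receptors, had too few counts for the test, with 16, 15 and 5 counts in S34F replicates 1 to 3, against 1, 0 and 2 counts in WT replicates 1 to 3. Each S34F library held more counts than any WT library. Summed, 36 counts in S34F and 3 in WT gave a ratio of 11.6 after scaling to library size, with an exact 95% interval of 3.67 to 58.9 for counting error only. With no count filter Rxra passed (edgeR adjusted p = 0.0162). That fit took in all 24480 genes with at least 1 count and called 763, beside 293 of 13444 with the filter. Irf8, which monocyte and dendritic cell progenitors need, had 0, 1 and 0 counts in S34F replicates 1 to 3, against 0, 0 and 1 counts in WT replicates 1 to 3, at or below the limit of a count of 0.

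The stem and progenitor role held 16 genes, of which 13 could be tested and 1 fell, where 0.595% of all genes tested were called as lower. Fli1, an ETS factor of stem cells and megakaryocytes, was the one that changed, at 99.4, 107 and 95.3 CPM in S34F replicates 1 to 3, against 144, 162 and 172 CPM in WT replicates 1 to 3. The gene lies on chromosome 9, 32422204 to 32542861 (minus strand). The S34F libraries lay close together below all WT libraries. Fli1 fell 1.59-fold, with a log2 fold change of -0.67 ± 0.11 (SE, 3 libraries each, edgeR adjusted p = 0.0276). Its closest relative Erg stood at 51.0, 52.9 and 59.2 CPM in S34F replicates 1 to 3, against 41.8, 47.1 and 45.8 CPM in WT replicates 1 to 3. The Erg groups did not overlap, yet its log2 fold change of 0.28 ± 0.11 (SE) did not pass (edgeR adjusted p = 0.205).

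Mecom stood at 1137, 1460.4 and 1228 CPM in S34F replicates 1 to 3, against 630.2, 1043 and 1056 CPM in WT replicates 1 to 3. WT replicate 1 was far below the other libraries, and the lowest S34F library lay above the highest WT library. The log2 fold change of 0.49 ± 0.20 did not pass (SE, edgeR adjusted p = 0.208), and without WT replicate 1 it was 0.29 ± 0.14 (adjusted p = 0.204). Lyl1 had 204, 209 and 223 CPM in S34F replicates 1 to 3, against 151, 175 and 179.8 CPM in WT replicates 1 to 3, again with no overlap, and a log2 fold change of 0.33 ± 0.11 (SE, edgeR adjusted p = 0.140). Runx1, the DNA-binding subunit of core binding factor and a frequent target of mutation in leukemia, lay lower, at 151, 157 and 141 CPM in S34F replicates 1 to 3, against 161, 195 and 195 CPM in WT replicates 1 to 3. Its groups did not overlap, and its log2 fold change was -0.29 ± 0.12 (SE, edgeR adjusted p = 0.187).

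None of the other genes of the shared progenitor complex passed. The GATA factor gene Gata2 had a log2 fold change of 0.15 ± 0.13, the helix-loop-helix gene Tal1 one of -0.02 ± 0.14, the bridging LIM protein gene Lmo2 one of -0.15 ± 0.18 and its adaptor Ldb1 one of 0.06 ± 0.10 (SE, edgeR adjusted p between 0.540 and 0.939). Cbfb, the partner of all RUNX proteins, Etv6 and the homeobox gene Hhex had log2 fold changes of 0.12 ± 0.10, -0.22 ± 0.13 and -0.19 ± 0.16 (SE), none of which passed. Myb, needed for progenitor growth, had 211, 336 and 186 CPM in S34F replicates 1 to 3, against 282, 334 and 343 CPM in WT replicates 1 to 3. S34F replicate 2 lay with the WT libraries while S34F replicates 1 and 3 lay lower, and the log2 fold change of -0.39 ± 0.21 (SE) did not pass (edgeR adjusted p = 0.319). Meis1, Hoxa9 and Hoxa10, homeobox genes of stem cells and many myeloid leukemias, were at 0 counts in all 6 libraries.

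Of the erythroid and megakaryocytic genes, Gfi1b, the repressor related to Gfi1 that red cell and platelet precursors need, stood at 7.39, 12.0 and 4.48 CPM in S34F replicates 1 to 3, against 11.9, 20.0 and 20.2 CPM in WT replicates 1 to 3. S34F replicate 2 overlapped WT replicate 1, while S34F replicate 3 was the lowest. The log2 fold change of -1.12 ± 0.35 (SE) did not pass by edgeR (adjusted p = 0.120) and passed by DESeq2 (adjusted p = 0.0194). Zfpm1, which encodes FOG1, the partner of GATA1, had the highest level of this role, at 70.1, 80.2 and 72.3 CPM in S34F replicates 1 to 3, against 58.9, 76.4 and 82.6 CPM in WT replicates 1 to 3, with groups that overlapped and a log2 fold change of 0.03 ± 0.14 (SE, edgeR adjusted p = 0.924). Gata1 itself had 2, 2 and 0 counts in S34F replicates 1 to 3, against 0, 1 and 4 counts in WT replicates 1 to 3, so FOG1 transcripts were present where those of Gata1 were close to the limit of detection. The other GATA factor gene described here, Gata2, stood at 480 CPM in S34F and 434 CPM in WT. In this role edgeR called 0 of 2 genes, with 1 at an unadjusted p under 0.05 (22.0% of all genes), against 1 call by DESeq2 (9.04% of all genes) and 0 by limma-voom (2.02%).

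Ikzf2 was the 1 of the 12 lymphoid genes that changed, with 8 tested, where 0.595% of all genes tested were called as lower. It encodes Helios, an Ikaros family zinc finger factor known from T cells and also present in stem cells, and the gene lies on chromosome 1, 69531214 to 69687245 (minus strand). Its level was 191, 241 and 249.7 CPM in S34F replicates 1 to 3, against 320.0, 396 and 384 CPM in WT replicates 1 to 3. All S34F libraries lay below the WT libraries, and S34F replicate 1 and WT replicate 1 were the lowest of their groups. Ikzf2 fell 1.62-fold, with a log2 fold change of -0.69 ± 0.14 (SE, 3 libraries each, edgeR adjusted p = 0.0492). Its relative Ikzf1, which encodes Ikaros, had a log2 fold change of 0.14 ± 0.15 (SE, edgeR adjusted p = 0.628) with overlapping groups.

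Runx3, a RUNX factor of T and natural killer cells, stood at 9.03, 9.52 and 7.58 CPM in S34F replicates 1 to 3, against 17.9, 12.7 and 11.4 CPM in WT replicates 1 to 3. The S34F libraries were lower without overlap, and WT replicate 1 was the highest library. The log2 fold change of -0.69 ± 0.22 (SE) was as large as that of Ikzf2 but did not pass by edgeR (adjusted p = 0.122), while DESeq2 gave an adjusted p of 0.0451. Tcf3, which encodes the E proteins E12 and E47, was measured at 144, 118 and 129.7 CPM in S34F replicates 1 to 3, against 116, 108 and 105 CPM in WT replicates 1 to 3. Its groups were narrowly apart, with a log2 fold change of 0.25 ± 0.11 (SE, edgeR adjusted p = 0.239). Elf1 and Elf4, ETS factors of lymphocytes, and Runx2, known from bone and from dendritic cells, had log2 fold changes of -0.28 ± 0.17, -0.01 ± 0.18 and -0.10 ± 0.11 (SE), and Bcl6 one of -0.04 ± 0.32, all with overlapping groups and none past the test. Without WT replicate 1, Elf1 also passed (edgeR adjusted p = 0.0392), in a fit that called 1177 genes in all, beside 293 with that library. The WT libraries left in that fit were the very close pair of replicates 2 and 3. Elf1 stood at 106 CPM in WT replicate 1, beside 158 and 162 CPM in WT replicates 2 and 3. Spib and Irf4, factors of B cells and dendritic cells, and Ets1, a factor of lymphocytes, had at most 2 counts in a library. Mef2c, a factor of lymphoid progenitors and myeloid leukemias, was at 0 in all 6.

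In the MYC and MAX network, Myc stood at 389, 433 and 360.0 CPM in S34F replicates 1 to 3, against 329, 379 and 377 CPM in WT replicates 1 to 3, and the groups overlapped. Its log2 fold change of 0.12 ± 0.12 (SE) did not pass (edgeR adjusted p = 0.583), nor did that of its partner Max, at -0.09 ± 0.11 (adjusted p = 0.655). Mxd1, which competes with MYC for MAX as cells mature, had 12.1, 23.9 and 12.3 CPM in S34F replicates 1 to 3, against 12.3, 9.54 and 10.5 CPM in WT replicates 1 to 3. S34F replicate 2 stood well above the WT libraries while S34F replicates 1 and 3 lay near WT replicate 1, and the log2 fold change was 0.58 ± 0.28 (SE, edgeR adjusted p = 0.263). Mycn had 0, 12 and 0 counts in S34F replicates 1 to 3, against 6, 6 and 6 counts in WT replicates 1 to 3, with all S34F counts in replicate 2. Here edgeR called 0 of 3 genes, none had an unadjusted p under 0.05, and DESeq2 and limma-voom called 0.

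**Figure D3:**
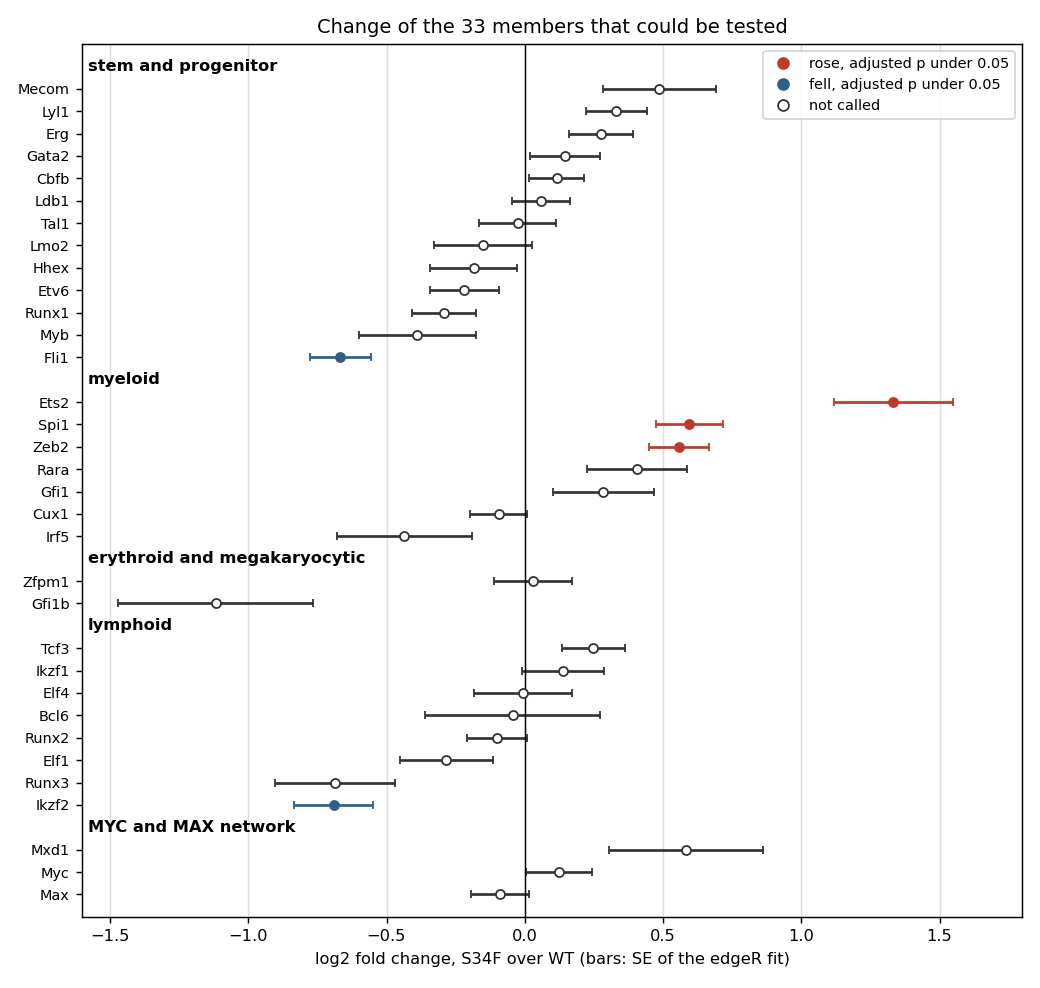
Log2 fold change of S34F over WT for the 33 genes that could be tested, by role, with the SE of the edgeR fit as bars and filled symbols for the 5 genes past the test. Ets2, Spi1 and Zeb2 lie to the right, Fli1 and Ikzf2 to the left, and Gfi1b and Runx3 lie as far left without passing.

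Family sums were formed after the single values were seen, from CPM per kb of exon. The ETS factors among the genes (Spi1, Spib, Fli1, Erg, Ets1, Ets2, Elf1, Elf4 and Etv6) summed to 254 ± 23.2 CPM per kb in S34F and 234 ± 18.8 in WT (SD, n = 3 each), with overlapping groups. These sums, shares and ratios are descriptions with no test, and those of Spi1, Ets2, Fli1 and Ikzf2 restate genes already called. Spi1 made up 28.4% ± 3.08 in S34F and 20.4% ± 0.494 in WT. Ets2 made up 14.9% ± 3.29 in S34F and 6.60% ± 1.68 in WT. The part of Fli1 was 11.4% ± 0.405 in S34F and 19.5% ± 0.432 in WT. Etv6 made up 22.3% ± 0.949 in S34F and 28.3% ± 1.02 in WT, the largest share in WT. Its own level overlapped between the groups (edgeR adjusted p = 0.345), and its share also depends on the called genes in the sum. The groups did not overlap in these 4 shares. They overlapped in the shares of Elf4, at 9.94% ± 1.17 in S34F and 10.7% ± 1.90 in WT, of Elf1, at 6.84% ± 0.801 in S34F and 8.93% ± 1.34 in WT, and of Erg, at 6.23% ± 1.01 in S34F and 5.55% ± 0.166 in WT. The ratio of Spi1 to Fli1 was 2.83, 2.36 and 2.32 in S34F replicates 1 to 3, against 1.08, 1.05 and 1.01 in WT replicates 1 to 3, and that of Spi1 to Gata2 was 1.03, 0.787 and 0.649 in S34F replicates 1 to 3, against 0.611, 0.567 and 0.601 in WT replicates 1 to 3. Each S34F library was above each WT library in both ratios, and for Spi1 to Gata2 S34F replicate 3 lay closest to the WT libraries. The ratio of Ikzf1 to Ikzf2 was 0.363, 0.307 and 0.366 in S34F replicates 1 to 3, against 0.194, 0.197 and 0.189 in WT replicates 1 to 3, also without overlap. The 3 RUNX genes summed to 31.3 ± 0.669 CPM per kb in S34F and 36.4 ± 1.70 in WT, lower in every S34F library than in any WT library. Within the RUNX sum Runx2 was the largest part in both groups, at 54.5% ± 3.67 in S34F and 50.3% ± 0.852 in WT.

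The 5 calls did not hold in every setting. With a library left out the test has fewer libraries, so a lost call does not show dependence on that library. As the groups of the 5 genes did not overlap, leaving out 1 library could hardly turn a direction. With WT replicates 2 and 3 summed, edgeR called none of the 34 genes then tested, with 10 at an unadjusted p under 0.05 (13.0% of all genes in that fit). Over all genes 20 were called in that fit, beside 293 with the libraries kept apart. The log2 fold changes were then 1.27 ± 0.25 for Ets2, 0.62 ± 0.16 for Spi1, 0.54 ± 0.15 for Zeb2, -0.63 ± 0.14 for Fli1 and -0.65 ± 0.17 for Ikzf2 (SE, edgeR adjusted p between 0.118 and 0.218). None of the 5 passed without S34F replicate 1, S34F replicate 3, WT replicate 2 or WT replicate 3. Without S34F replicate 2, Ets2 and Fli1 passed, and without WT replicate 1 all 5 did, where 1177 genes in all were called. The number called over all genes changed with these fits too, so a gained or lost call is not particular to these genes. Over these 6 fits the log2 fold change of Ets2 lay between 1.05 and 1.48, of Spi1 between 0.50 and 0.68, of Zeb2 between 0.50 and 0.61, of Fli1 between -0.73 and -0.61 and of Ikzf2 between -0.78 and -0.59. Fold changes over all genes also followed GC content (rho 0.316 by Spearman, taken over genes that are no independent replicates). With that trend removed in each library Zeb2 and Ets2 passed, while Spi1, Fli1 and Ikzf2 had log2 fold changes of 0.45 ± 0.13, -0.55 ± 0.11 and -0.48 ± 0.12 (SE, edgeR adjusted p = 0.131, 0.0547 and 0.0959). Over all genes 124 were called in that fit.

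**Figure D4:**
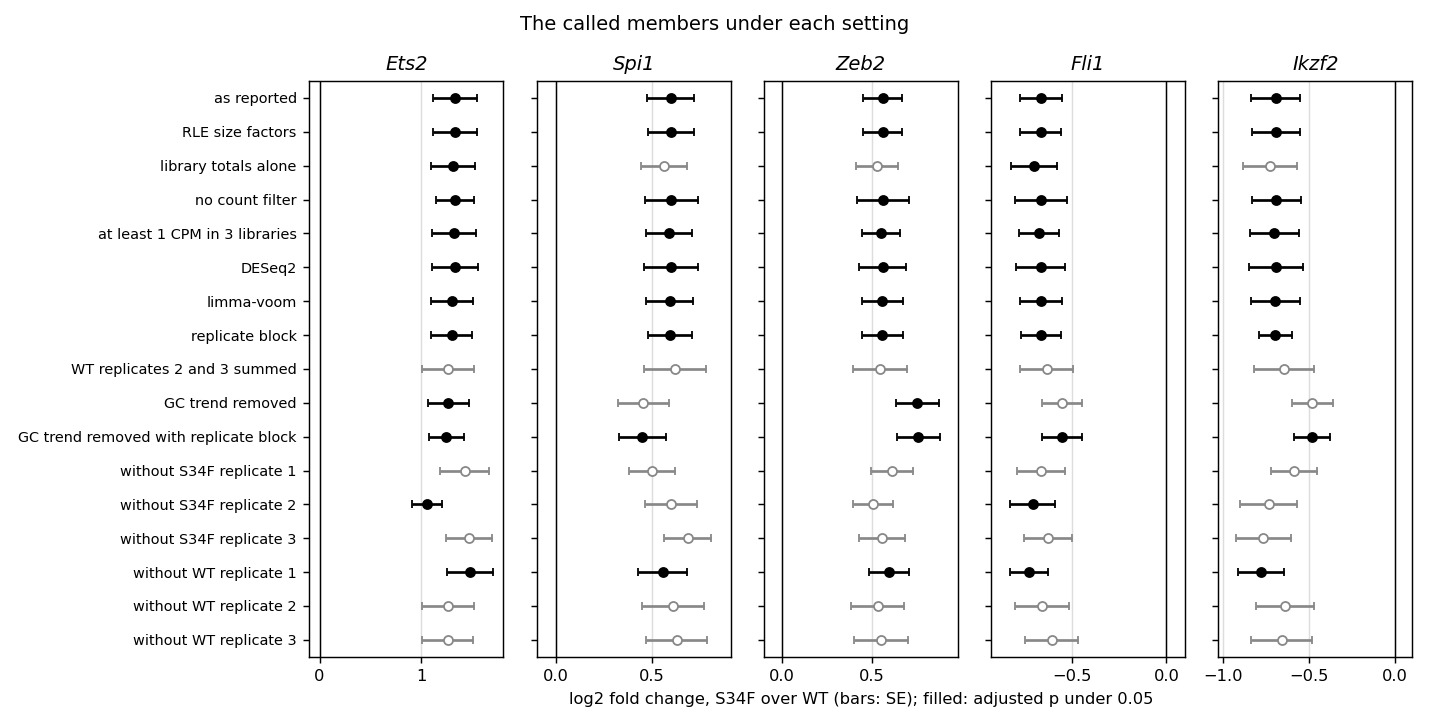
Log2 fold change of S34F over WT for the 5 called genes under each setting, with the SE as bars, filled where the adjusted p was under 0.05. All points of a gene lie on the same side of 0, while all 5 are open when WT replicates 2 and 3 are summed or when S34F replicate 1, S34F replicate 3, WT replicate 2 or WT replicate 3 is left out. Some are open with library totals alone, with the GC trend removed and without S34F replicate 2.

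Markers of blood and stromal cell types, cofactors, MYC network genes and family relatives were read from 11 lists, each gene counted once, of which 116 could be tested. Over all lists 4 rose and none fell, where 2.18% of all genes tested were called. Granulocyte and monocyte genes held 3 of them, with 20 of 26 tested, 17 not past the test and a median log2 fold change of 0.96. Csf2ra, the alpha chain of the GM-CSF receptor and a PU.1 target, stood at 83.3, 73.2 and 62.5 CPM in S34F replicates 1 to 3, against 42.0, 41.2 and 39.3 CPM in WT replicates 1 to 3 and rose 1.79-fold (edgeR adjusted p = 0.0248). The C/EBP factor genes Cebpb and Cebpd rose 2.13-fold and 2.61-fold (edgeR adjusted p = 0.0438 and 0.0267). With WT replicates 2 and 3 summed none of the 4 listed calls held, Rxrb of another list included (edgeR adjusted p between 0.107 and 0.221). With the GC trend removed Cebpd held, while Csf2ra, Cebpb and Rxrb did not (edgeR adjusted p = 0.0553, 0.0762 and 0.173). These 2 fits called 20 and 124 genes in all, beside 293 in the fit with neither change. The summed level of the list was 2346, 2595 and 1387 CPM in S34F replicates 1 to 3, against 1259.5, 1095 and 1096 CPM in WT replicates 1 to 3. Lyz2 made up much of it, at 803, 856 and 192 CPM in S34F replicates 1 to 3, against 222, 107 and 106 CPM in WT replicates 1 to 3, and its groups overlapped. Cebpa and Ly86 of this list were at 0 in every library. Spi1 was highest in S34F replicate 1 and Ets2 in S34F replicate 2, the 2 libraries with the highest sums. Zeb2 was lowest of the S34F libraries in replicate 1, at 61.8 CPM, beside 72.3 and 67.7 CPM in S34F replicates 2 and 3. Ets2 stood at 188 CPM in S34F replicate 1 and 177 CPM in S34F replicate 3, where the sums lay far apart. The part of this marker list in the rises of Spi1, Ets2 and Zeb2 was not tested.

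**Figure D5:**
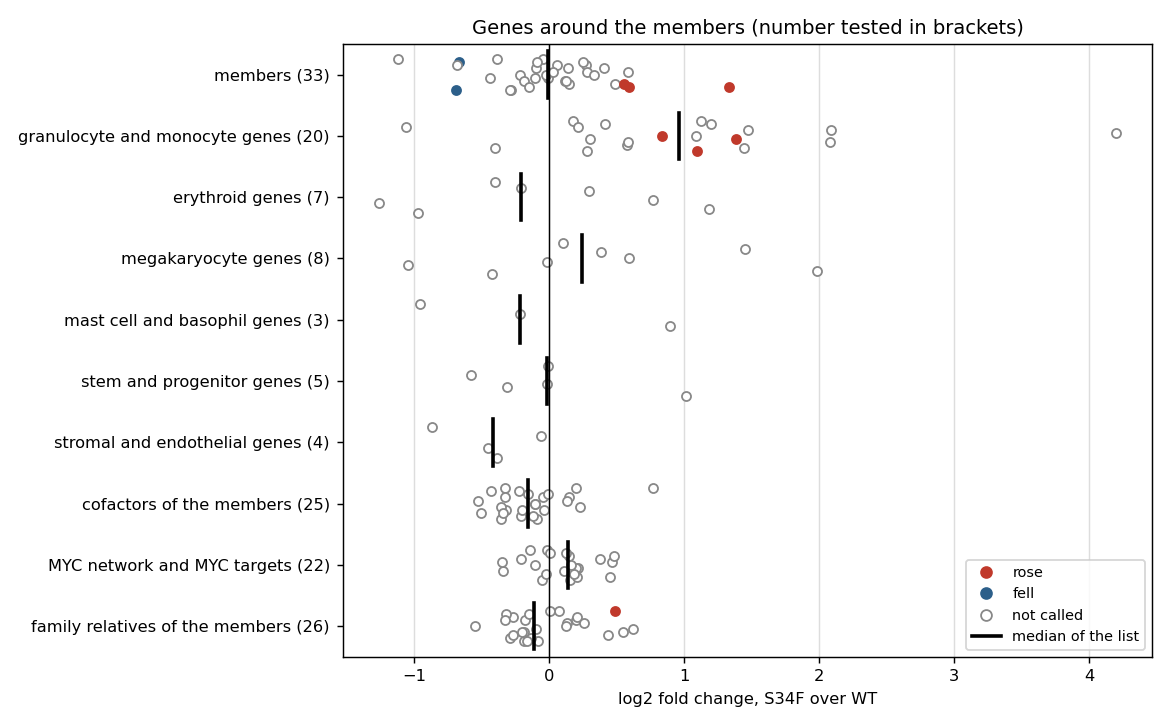
Log2 fold change of S34F over WT for each tested gene of the 44 and of 9 lists around them, with black bars for the median of each list and filled symbols for genes past the test. Granulocyte and monocyte genes spread to the right with a median of 0.96, and the medians of the other lists lie between -0.42 and 0.24.

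No gene of the erythroid, megakaryocyte, mast cell and basophil, stem cell or stromal lists was called by edgeR. At an unadjusted p under 0.05 there were 1 of 7, 3 of 8, 0 of 3, 2 of 5 and 2 of 4 tested genes, where 22.0% of all genes lay under it. DESeq2, which called 9.04% of all genes, called 1, 2, 0, 1 and 0 of them, and limma-voom, which called 2.02%, called 0, 1, 0, 0 and 0. In the same order, 3, 5, 1, 1 and 0 tested genes had positive log2 fold changes and 4, 3, 2, 4 and 4 negative ones. Hemgn, an erythroid nuclear protein gene, stood at 38.4, 66.4 and 32.2 CPM in S34F replicates 1 to 3, against 72.3, 95.2 and 102 CPM in WT replicates 1 to 3, lower in S34F without overlap, but did not pass (log2 fold change -0.97 ± 0.26 SE, edgeR adjusted p = 0.0873). The platelet chemokine gene Pf4 had 35.6, 40.1 and 41.7 CPM in S34F replicates 1 to 3, against 24.3, 10.1 and 8.60 CPM in WT replicates 1 to 3, higher in S34F without overlap, with a log2 fold change of 1.45 ± 0.35 (SE, edgeR adjusted p = 0.0699). Cd48, Mcpt8 and Acta2 had the smallest p of the stem cell, mast cell and stromal lists, with log2 fold changes of -0.58 ± 0.13, 0.90 ± 0.48 and -0.87 ± 0.27 (SE, edgeR adjusted p = 0.0601, 0.314 and 0.120). Summed over all genes of a list, B-lymphoid genes reached 1.66 CPM and T-lymphoid genes 1.30 CPM at most in a library, and none could be tested.

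Cofactors of these factors gave 25 tested genes of 29. By edgeR 0 were called, with 9 of 25 at an unadjusted p under 0.05 (22.0% of all genes), against 4 calls by DESeq2 (9.04% of all genes) and 0 by limma-voom (2.02%). The median log2 fold change was -0.16, 20 of the 25 were negative, and in 10 every S34F library lay below every WT library, where 13.1% of all genes tested did so. Sin3a, the scaffold of a deacetylase complex used by MAD proteins such as that of Mxd1, had the smallest p, at 144, 173 and 146 CPM in S34F replicates 1 to 3, against 198, 211 and 213 CPM in WT replicates 1 to 3, and a log2 fold change of -0.43 ± 0.11 (SE, edgeR adjusted p = 0.0869). In the list of the MYC network and its targets, all 22 genes could be tested and edgeR called 0, with 2 of 22 at an unadjusted p under 0.05, 1 call by DESeq2 and 0 by limma-voom, below the shares of all genes for each (22.0%, 9.04% and 2.02%). Mnt, a MAX-binding repressor, had the smallest p, with a log2 fold change of 0.46 ± 0.12 (SE, edgeR adjusted p = 0.0833). Of 42 relatives from the same families, 26 could be tested and 1 rose, Rxrb, which encodes a retinoid X receptor. It stood at 99.6, 94.6 and 101 CPM in S34F replicates 1 to 3, against 69.9, 69.2 and 71.1 CPM in WT replicates 1 to 3 and rose 1.40-fold (log2 fold change 0.49 ± 0.10 SE, edgeR adjusted p = 0.0445).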

How the data were processed

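Messenger RNA libraries of 32D cells were deposited as 1 table of raw counts per gene, 3 libraries for S34F and 3 for WT. HISAT2 and featureCounts on mm10 made the counts, as the submitters' processing notes list them, and per the labels the library kit was directional. The sources used here give no versions, annotation release or strand setting. From the deposited counts, TMM-normalised CPM and CPM per kb of exon (GENCODE M21 union exons, GRCm38) were computed here.

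The 2 groups were compared with edgeR 4.0.16 (R 4.3.3) by the quasi-likelihood F test with robust dispersion, genotype as the only term and filterByExpr, on all 13444 genes that passed, with Benjamini-Hochberg adjustment over them and a threshold of 0.05. The SE is the log2 fold change divided by the square root of F. DESeq2 1.42.0, limma-voom 3.58.1, other scalings and filters, a GC correction, a replicate block and leaving out each library were alternatives. Between 16509899 and 19129250 counts per library limit the precision of genes near 3 counts.

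The 44 genes and the lists around them were chosen with earlier results of these data known. All 44 are described. Of other genes, those called and the gene with the smallest p of a list are named. U2af1, Lyz2, Tnpo3 and the family sums and ratios were chosen after their values were seen or because a result touches them. Promoter sequences are from RefSeq (GRCm38.p6).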

Additional observations from a re-analysis of the deposited data

How the results depend on the processing

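Against 293 genes called in all, 763 were called with no count filter, 1216 by DESeq2, 20 with WT replicates 2 and 3 summed and 124 with the GC trend removed. Leaving out 1 library gave 19 to 1177, the highest without WT replicate 1. Of the 44 genes, 5 were called, 2 with library totals alone (Fli1 and Ets2), 0 with WT replicates 2 and 3 summed, 2 with the GC trend removed (Zeb2 and Ets2), and 0 to 6 without 1 library. Against 4 listed genes called, 8 were called with no count filter, 18 by DESeq2, 0 with WT replicates 2 and 3 summed (22 at an unadjusted p under 0.05), 1 with the GC trend removed, and 0 to 17 without 1 library.

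Replicate numbers are shared by the groups, but the labels do not say that they pair the libraries, so no pairing was taken. The deviations of same-numbered libraries correlated at 0.332, 0.159 and 0.0719. S34F replicate 1 correlated at -0.259 and -0.243 with WT replicates 2 and 3. S34F replicate 2 correlated at 0.153 with WT replicate 3, and S34F replicate 3 at 0.0801 with WT replicate 2. As WT replicates 2 and 3 were a very close pair, these values cannot tell them apart as partners and do not settle the pairing. With the replicate block 1418 genes in all, 8 of the 44 (adding Mecom, Gfi1b and Runx3) and 21 listed genes were called. With the GC trend removed and the replicate block these were 1198, 8 and 16.

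Log2 fold changes of genes that were not called changed sign as follows, and the cause was not tested. Ldb1 was at -0.0719 with the GC trend removed and -0.0712 with the replicate block added. Zfpm1 was at -0.0048 with library totals alone, -0.21 with the GC trend removed and -0.19 with the replicate block added. Elf4 was at 0.0255 by limma-voom, 0.0239 with the replicate block and 0.10 with WT replicates 2 and 3 summed, where Tal1 was at 0.0107 and Bcl6 at 0.0301. Without 1 library, log2 fold changes ranged from -0.35 to 0.0215 for Lmo2, -0.16 to 0.0588 for Tal1, -0.10 to 0.13 for Zfpm1, -0.19 to 0.10 for Elf4 and -0.30 to 0.15 for Bcl6.

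Ets2, Spi1, Zeb2, Fli1 and Ikzf2 kept their direction under all 16 alternatives. These fits reuse the same libraries, in which the groups of these genes did not overlap, so a direction could hardly turn. Genes with few counts (Rxra, Gata1, Mycn and the other untested genes) are limited by depth.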
